A study of Homo sapiens with 8 samples.

Results

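The response of A431 cells to inhibition of the NEDD8 pathway was described over every gene that could be tested. A431 is an established human line from an epidermoid carcinoma, a squamous tumour, and is known for its amplified EGFR gene. In all, 4 groups of 2 libraries make up the study, which treated A431 and the tongue carcinoma line CAL27 with the solvent DMSO or with an inhibitor labelled NEDD8i. Here the 2 A431 libraries under NEDD8i were set against the 2 A431 libraries under DMSO, so 4 of the 8 libraries carry the comparison. All cells had been grown below confluence and were collected after 16 h in fresh medium with the drug or solvent. The chemical name and dose of NEDD8i, and whether the libraries numbered 1 and 2 came from separate cultures, were not stated in the labels. P-values below therefore measure only the spread between these libraries, which may be technical. RNA was read from the 3' ends of polyadenylated transcripts with a QuantSeq kit.

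NEDD8 is a small ubiquitin-like protein that is joined to its targets by an activating enzyme (NAE1 with UBA3), conjugating enzymes (UBE2M and UBE2F) and helper ligases of the DCN1-like family. Its best known targets are the cullins, the scaffolds of cullin-RING ubiquitin ligases, which need the modification for full activity. These ligases mark many short-lived regulators for the proteasome, among them the stress factor NRF2 (gene NFE2L2), the replication factor CDT1, the cell cycle inhibitors p21 and p27, and the inhibitor of NF-kB. In squamous epithelium the same ligases act on regulators of growth, differentiation and inflammation. Transcript levels, which are what was measured, report on the genes downstream of such proteins and not on the proteins.

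The A431 libraries held 49037868 to 58461295 counts, and 19681 to 20838 genes had at least 1 count. The mitochondrial genome took 2.69% and 3.15% of the counts under DMSO and 1.96% and 2.27% under NEDD8i. All 12 squamous epithelial markers of the list used as a check, such as KRT5, KRT14, TP63 and DSP, were counted. Their summed level was 15807 and 15825 CPM (counts scaled to a common library size, as set out under the processing) under DMSO and 19148 and 18587 CPM under NEDD8i. Lists for other cell types stayed low, at most 55.6 CPM per library for melanocyte markers, 39.1 for fibroblast, 21.9 for endothelial and 6.78 for immune markers. Each of these 4 sums was lower under NEDD8i in both libraries, and their part in any result was not tested. The defining immune genes PTPRC, CD3E, CD68 and TYROBP, the endothelial KDR and CLDN5, and the melanocyte TYR and DCT had 0 counts in all 4 libraries. Other members were counted and made up most of the sums. Under DMSO these were MITF (49.7 and 53.5 CPM), LUM (26.3 and 21.6), COL1A1 (12.2 and 13.5), CDH5 (18.7 and 16.6) and CD14 (6.64 and 6.30). Each of them was lower in both NEDD8i libraries. In bulk RNA, fewer cells of a kind and less RNA per cell cannot be told apart.

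Of 18738 genes tested with edgeR's quasi-likelihood test, 4224 rose and 3951 fell under NEDD8i at a Benjamini-Hochberg adjusted p under 0.05, which is 22.5% and 21.1% of the genes and is what "called" means below. Calls of either direction covered 43.6% of the genes, and this share is given as the background for gene families, though it differs by level. It was 11.7% for genes with a mean under 1 CPM and 64.1% from 10 to 100 CPM. From 100 to 1000 CPM it was 75.5%. The filter used all 8 libraries, and with the A431 libraries alone 15852 genes were tested. Without adjustment 49.8% of genes had a p under 0.05. Most calls were small changes. At least 2-fold changes made up 1027 of the calls of higher level (5.48% of the genes tested) and 1485 of the calls of lower level (7.93%). The median gene moved by 0.48 on the log2 scale in either direction, without regard to sign, and genes of low level moved most. This median was 0.99 under 1 CPM, where few genes were called, and 0.55 from 1 to 10 CPM. It was 0.34 from 10 to 100 CPM, 0.30 from 100 to 1000 CPM and 0.27 from 1000 CPM. The balance of directions depends on scaling. With total counts in place of TMM factors, which moved the median log2 change from -0.01 to -0.11, 3469 genes were called higher and 4869 lower, so 41.6% of calls were of higher level against 51.7% with TMM. All log2 changes below are NEDD8i against DMSO, given ± their standard error (SE) from the fit, with 2 libraries per group.

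In absolute terms the called genes exchanged a large share of the transcript pool. Together, the 4224 genes called higher took 336128 and 333553 CPM under DMSO and 517988 and 511667 CPM under NEDD8i, a gain of 179987 CPM between group means. Genes called lower went from 389815 and 391409 CPM to 285200 and 284735 CPM, a loss of 105644 CPM. The 10563 genes that were not called held 269560 ± 490 CPM under DMSO and 268382 ± 1242 CPM under NEDD8i (SD, n = 2). With total counts in place of TMM factors, the gain was 140791 CPM and the change of the genes called lower -138660 CPM, so the gain exceeded the loss by far less than with TMM. Neither sum rested on a few transcripts. It took 243 genes, or 5.75% of those called higher, to reach 50% of the gain, and 218 genes, or 5.52%, to reach 50% of the loss. The 15 genes with the largest differences made up 15.3% of the gain and 13.0% of the loss.

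Small fold changes carried most of the moved transcripts. Genes that rose by less than 2-fold were 3197 of the 4224 calls and made up 59.5% of the CPM gained. The 2466 genes that fell by less than 2-fold made up 73.7% of the CPM lost. At the other end, the 409 genes that rose at least 4-fold held 15.7% of the gain, from a median level of 0.12 CPM under DMSO. The 640 genes that fell at least 4-fold held 5.68% of the loss, and their median was 1.12 CPM under DMSO and 0.13 CPM under NEDD8i.

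**Figure D1:**
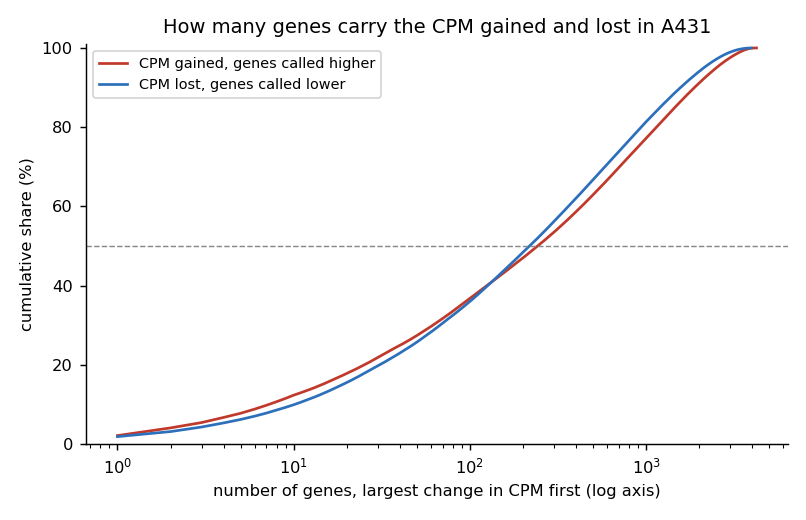
Cumulative share of the CPM gained by genes called higher (red) and lost by genes called lower (blue) in A431, in percent, against the number of genes on a log axis, largest difference first. The dashed line marks 50%, which the gain reaches at 243 genes and the loss at 218.

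The response was also set out by expression level, in 5 classes of the mean CPM of the 4 libraries. QuantSeq reads only the end of each transcript, so CPM were not divided by gene length. Among 6386 genes under 1 CPM, 11.7% were called, 261 higher and 488 lower, and 99.3% of these calls were at least 2-fold. From 1 to 10 CPM, 458 of 3354 genes were higher and 926 lower, so calls of lower level were in excess. The order turned in the 6621 genes of 10 to 100 CPM, with 2398 higher and 1849 lower, and in the 2277 genes of 100 to 1000 CPM, with 1071 higher and 648 lower. With total counts this turn was not seen, as calls were 1957 higher and 2329 lower from 10 to 100 CPM and 834 higher and 857 lower from 100 to 1000 CPM. In the 100 genes of 1000 CPM and over, 36 were higher and 40 lower, so 76.0% of the most abundant transcripts were called and 13.2% of those calls reached 2-fold. The class of 100 to 1000 CPM alone supplied 54.8% of the gain and 50.6% of the loss. Low classes hold many noncoding genes, and 2419 of the 6386 genes under 1 CPM were protein coding. Of these 4.96% were called higher and 11.3% lower, and from 1 to 10 CPM 15.02% and 31.0%, so the excess of falling genes at low level was present within protein-coding genes.

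**Figure D2:**
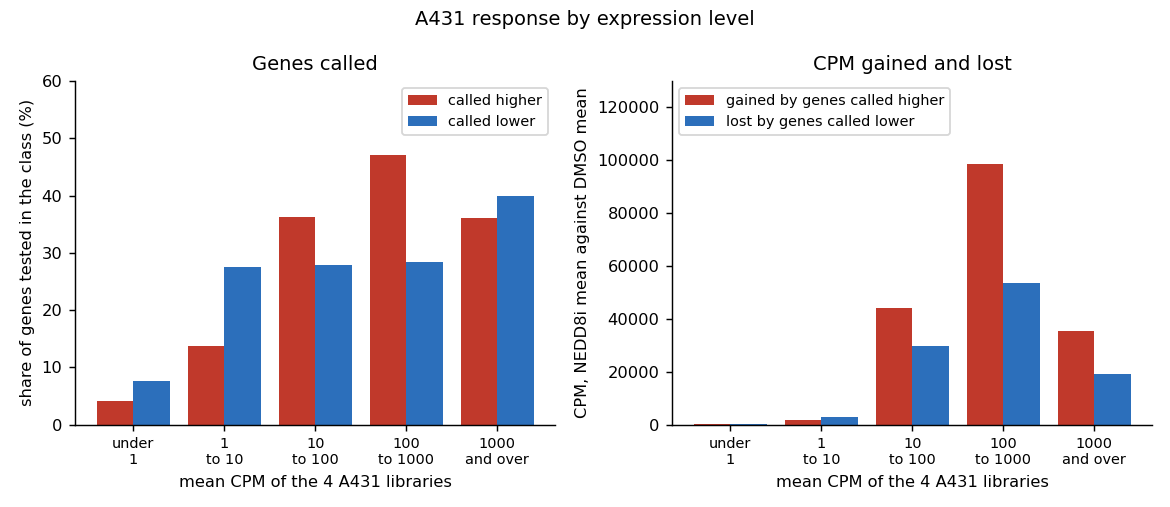
Genes of A431 by class of mean CPM over the 4 libraries. Left, the share of tested genes called higher (red) or lower (blue), in percent. Right, the CPM gained and lost between group means. Calls of lower level outnumber calls of higher level under 10 CPM, and the class of 100 to 1000 CPM holds 54.8% of the CPM gained and 50.6% of the CPM lost.

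The genes that gained most CPM were led by enzymes that handle reactive aldehydes, iron and glucose. AKR1C2, an aldo-keto reductase at chr10:4987775-5004014 (GRCh38), had 222 and 199.7 CPM under DMSO and 4104 and 4077 CPM under NEDD8i. Its neighbour AKR1C1 (chr10:4963415-4983283) had 106 and 102 CPM under DMSO and 2576 and 2475 CPM under NEDD8i. Both rose (4.28 ± 0.08 and 4.60 ± 0.05 on the log2 scale), and since they are near-identical copies whose shared reads were dropped, how reads divide between them is uncertain. The iron store subunit FTL had 1442 and 1339 CPM under DMSO and 4946 and 4803 CPM under NEDD8i. TXNRD1, which reduces thioredoxin, had 311 and 316 CPM under DMSO and 2642 and 2642 CPM under NEDD8i. In each of these 4 genes the groups lay far apart, and the edgeR adjusted p ranged from 5.77e-20 for AKR1C1 to 5.19e-16 for FTL.

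Next in the order of CPM gained came glycolysis and the cell skeleton. LDHA, which makes lactate, had 1217 and 1149 CPM under DMSO and 3151 and 3007 CPM under NEDD8i, and ENO1, an enolase, 4064 and 3827 CPM under DMSO and 5960.3 and 5701 CPM under NEDD8i. The cell cycle adaptor SFN (14-3-3 sigma) went from 658 and 619 to 2455 and 2313 CPM. KRT14, the basal keratin, rose by 0.84 ± 0.04 from 2091 and 2058 to 3801 and 3627 CPM. The cytoplasmic actins ACTB and ACTG1 rose by only 0.33 ± 0.03 and 0.53 ± 0.04, yet gained 1509.6 and 1453 CPM from a high level. The rest of the 15 were PGD (pentose phosphate pathway), SLC7A11 and SLC3A2 (both chains of the cystine carrier), the desaturase SCD, and SPP1, the secreted protein osteopontin. SPP1 had 21.8 and 19.03 CPM under DMSO and 1060.3 and 1027 CPM under NEDD8i, the largest fold among the 15 (5.67 ± 0.07). No NEDD8i library of any of the 15 reached down to a DMSO library.

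**Figure D3:**
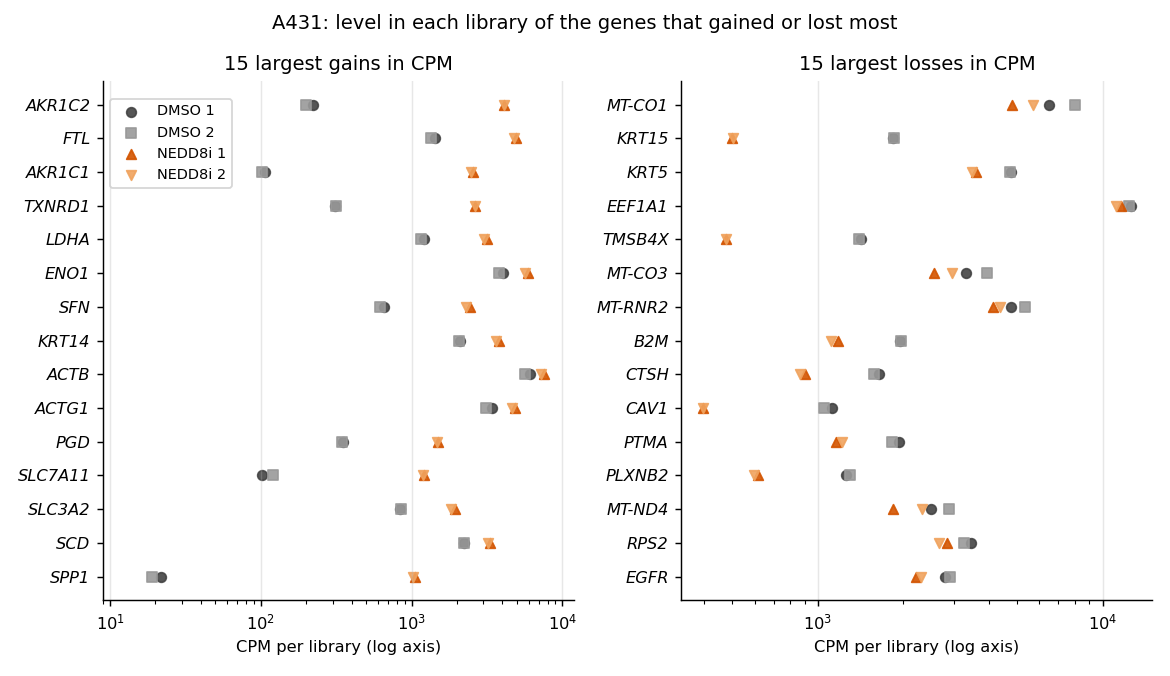
CPM on a log axis in each A431 library for the 15 genes called higher with the largest gain in CPM (left) and the 15 called lower with the largest loss (right). Circles and squares are DMSO libraries and triangles NEDD8i libraries. The groups are separate for every gene shown, widest for SPP1 and AKR1C1 and narrowest for EEF1A1 and MT-ND4.

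The largest losses of CPM came from mitochondrial transcripts, keratins and housekeeping genes of high level. MT-CO1, a subunit of cytochrome oxidase, had 6487 and 8031 CPM under DMSO and 4819.6 and 5702 CPM under NEDD8i, so its change of -0.46 ± 0.12 stands beside a wide spread within each group. MT-CO3 and MT-ND4 were called with changes of -0.40 ± 0.12 and -0.38 ± 0.13. In DESeq2 none of the 3 was called (adjusted p of 0.075, 0.152 and 0.24), and MT-CO3 and MT-ND4 also lost their call without the DMSO library 2 or the NEDD8i library 1. KRT15, a keratin of basal and stem-like keratinocytes, went from 1834 and 1854 to 499 and 506 CPM, the largest fold among the 15 (-1.88 ± 0.04). KRT5, the partner of KRT14, fell from 4768 and 4742 to 3599 and 3479 CPM. EEF1A1, the elongation factor that brings transfer RNAs to the ribosome, lost 1088 CPM with a log2 change of only -0.13 ± 0.03.

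TMSB4X, which binds actin monomers, had 1421 and 1395 CPM under DMSO and 477 and 477 CPM under NEDD8i. CAV1, the coat protein of caveolae, had 1123 and 1052 CPM under DMSO and 395 and 396 CPM under NEDD8i, and PLXNB2, a semaphorin receptor, 1258 and 1300.3 CPM under DMSO and 615 and 596 CPM under NEDD8i. B2M, the light chain of HLA class I, fell from 1942 and 1959 to 1174 and 1112 CPM, and the lysosomal protease CTSH from 1644 and 1581 to 905 and 869.6 CPM. PTMA, RPS2 and EGFR completed the list with MT-RNR2. EGFR, the receptor amplified in this line, had 2806 and 2913 CPM under DMSO and 2211 and 2310.0 CPM under NEDD8i (-0.34 ± 0.04). The groups were separate for each of the 15, and nearest to each other for EEF1A1, MT-ND4 and MT-RNR2.

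Within each level class the largest folds singled out other genes. From 10 to 100 CPM, the neutrophil chemokine CXCL8 (chr4:73740541-73743716) had 0.539 and 0.155 CPM under DMSO and 87.1 and 89.4 CPM under NEDD8i. HKDC1, a hexokinase-like enzyme, rose from 0.348 and 0.950 to 46.2 and 46.3 CPM. Both had under 1 CPM in each DMSO library and at least 46.2 CPM in each NEDD8i library. In the same class ATOH8, a helix-loop-helix factor of the BMP pathway, fell from 32.8 and 33.1 to 0.262 and 0.364 CPM, HPGD, which breaks down prostaglandins, from 22.3 and 17.3 to 1.05 and 0.910 CPM, and the surface antigen PSCA from 124 and 123 to 7.35 and 7.43 CPM. From 100 to 1000 CPM the aldo-keto reductase AKR1B10 had 1.46 and 1.14 CPM under DMSO and 579 and 570.5 CPM under NEDD8i, and MAP2, a microtubule protein best known from neurons, 7.44 and 8.26 CPM under DMSO and 245 and 244 CPM under NEDD8i. The death ligand TNFSF10 (TRAIL) fell from 208 and 212 to 22.7 and 22.8 CPM and the matrix gene MXRA5 from 185 and 200.1 to 23.5 and 22.7 CPM.

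A small set of genes appeared or vanished. With 0 counts in both DMSO libraries and at least 0.5 CPM in both NEDD8i libraries stood 13 genes, and with the reverse pattern 8. All 21 were called, but they were picked by the same counts that were tested, so the calls add no support. The highest of the first kind was F2RL2, a protease-activated receptor, with 10.1 and 10.5 CPM under NEDD8i, at least 376-fold higher when the DMSO group is set to a floor of 3 counts over both libraries. LINC00536, MAP1B, the dopamine receptor gene DRD5, IGFL1 and TNFSF18 followed, with 3.58, 2.98, 2.59, 2.06 and 1.56 CPM on average. Those lost were led by CYP1A1, the main target of the aryl hydrocarbon receptor, with 2.05 and 2.17 CPM under DMSO and 0 counts under NEDD8i, at least 70.8-fold lower. EXOC3L4, RCSD1, BCHE, PIEZO2 and KLHL30 came next with 0.787 to 1.04 CPM on average, and BCHE and PIEZO2 were not called in DESeq2 (adjusted p of 0.182 and 0.186). Both mates of a read pair were counted, so counts are not independent molecules, and these bounds cover counting error only. The counts of 13 and 8 depend on the cut-off and on single libraries. At 0.2 CPM they were 31 and 41 and at 1 CPM 7 and 1, and with 1 library left out they were as high as 22 (without DMSO library 2) and 24 (without DMSO library 1).

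The response was then read through 94 gene families in 9 functional groups, which together held 3853 of the tested genes, 45.8% of the CPM gained and 43.7% of the CPM lost. Summed over its members, a family was higher in both NEDD8i libraries than in both DMSO libraries in 58 cases, lower in 28, and overlapping in 8. With 2 libraries per group such a separation is easily reached, and some families share members, so these counts are a description only. With total counts 46 families were higher and 43 lower, and all 28 families that were lower stayed so. More members were called higher than lower in 56 families, or in 43 with total counts, so a balance of calls near even in a family depends on the scaling. Members moved in both directions in 89 of the 94. The share of members called was above the background of 43.6% in 84 families. All genes of 10 CPM and over also exceeded it, at 64.1% from 10 to 100 CPM and 75.5% from 100 to 1000 CPM. A share above 43.6% is therefore not particular to a family. Ratios below are the mean summed CPM under NEDD8i over that under DMSO.

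**Figure D4:**
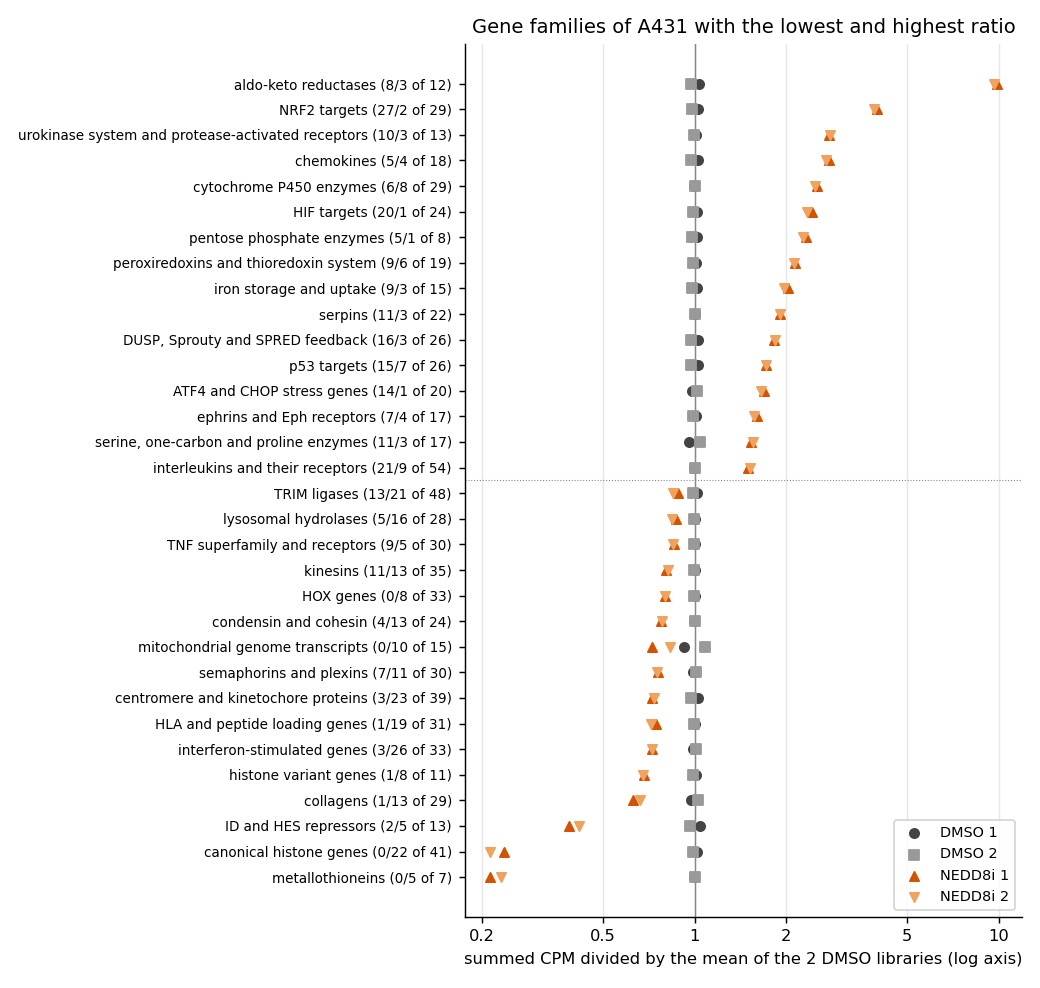
Summed CPM of 16 coding families with the lowest and 16 with the highest ratio in A431, each library divided by the mean of the 2 DMSO libraries, on a log axis. Numbers after each name are members called higher, called lower and tested. Aldo-keto reductases stand at 9.77, metallothioneins at 0.221 and canonical histone genes at 0.224, the means of their NEDD8i libraries.

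The NEDD8 machinery itself came first. NEDD8 had 48.3 and 47.8 CPM under DMSO and 51.1 and 52.5 CPM under NEDD8i and was not called (0.11 ± 0.07), and neither was UBA3 (-0.09 ± 0.09). NAE1, the other chain of the activating enzyme, rose from 66.3 and 69.9 to 105 and 115 CPM (0.69 ± 0.06), and UBE2M from 144 and 132 to 239.8 and 239 CPM (0.79 ± 0.06). Of the 13 neddylation genes 7 rose and 3 fell, the falling ones being the RING subunits RBX1 (86.6 and 77.7 to 53.9 and 58.05 CPM) and RNF7 (64.1 to 41.7 CPM) and the NEDD8 protease SENP8. Without DMSO library 1 or NEDD8i library 1, SENP8 was not called (edgeR adjusted p of 0.0698 and 0.133). Cullins and the COP9 signalosome, which removes NEDD8 from cullins, had 9 higher and 5 lower of 18 tested. CUL3 rose by 0.60 ± 0.05 and CUL1 by 0.66 ± 0.06, while CUL4B fell by 0.60 and CUL9 by 0.71 on the log2 scale.

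Substrate receptors moved both ways. F-box proteins, the receptors of CUL1 ligases, had 13 higher and 19 lower of 59 tested, with a median log2 change of -0.13. FBXO45 (73.4 to 191 CPM), FBXL18 (24.3 to 127 CPM) and FBXO30 (30.05 to 123 CPM) gained most, and FBXO32, a muscle atrophy factor, fell from 41.6 and 42.3 to 3.52 and 4.26 CPM. KLHL and KBTBD adaptors of CUL3 had 13 higher and 8 lower of 38 tested, or 10 higher and 9 lower with total counts. Among genes for known substrates of these ligases 19 rose and 12 fell of 38. CDKN1A, the gene of p21, rose from 41.7 and 38.98 to 196 and 199.9 CPM, JUN from 150.1 and 126 to 290.0 and 325 CPM, and MCL1 from 367 and 352 to 532 and 530.2 CPM. SREBF1, CCND1 and EPAS1 fell (-0.94 ± 0.04, -0.16 ± 0.04 and -0.55 ± 0.05). NFE2L2, which encodes NRF2, was not called (-0.11 ± 0.05), with 177 and 167 CPM under DMSO and 159.6 and 159 CPM under NEDD8i. With total counts it was called lower, at -0.22, and with a filter of 1 CPM at -0.14.

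Ubiquitin conjugating enzymes had 16 higher and 4 lower of 33 tested, with UBE2H rising from 171 to 345 CPM and the mitotic UBE2C falling (171 to 84.8 CPM). USP deubiquitinases had 17 higher and 7 lower of 46 tested, led by USP7 (0.71 ± 0.04), but 11 higher and 11 lower with total counts. TRIM ligases had 13 higher and 21 lower of 48 tested, and the interferon-induced TRIM22 fell from 102 and 106 to 17.2 and 13.3 CPM. In the proteasome 23 of 37 genes rose and 4 fell, and the summed level went from 7429 and 7208 CPM to 8827 and 8676 CPM. PSMD2, PSMD11 and PSMA7 gained most, with log2 changes of 0.56 ± 0.04, 0.73 ± 0.05 and 0.26 ± 0.04. The largest falls were the catalytic subunits of the immunoproteasome, PSMB8 (176 to 84.2 CPM), PSMB9 (118 to 29.6 CPM) and PSMB10 (51.6 to 14.1 CPM). The fourth gene that fell was PSMD10 (-0.22 ± 0.06), whose call was lost without NEDD8i library 1 (-0.14).

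Targets of NRF2 were the family with the largest gain. NRF2 is held down by a cullin ligase with the adaptor KEAP1 and drives genes for glutathione, thioredoxin, NADPH and drug metabolism. Of 29 targets 27 rose and 2 fell, with a median log2 change of 2.03 against -0.01 over all genes. Their sum was 8090.5 and 7740.5 CPM under DMSO and 31400.3 and 30795 CPM under NEDD8i, a ratio of 3.93, and their rising members made up 12.9% of all CPM gained. Besides the genes above, the glutathione synthesis subunits GCLM (184 to 1051 CPM) and GCLC (175 to 612 CPM), the quinone reductase NQO1 (477 to 1476 CPM), the heme oxygenase HMOX1 (52.3 to 382 CPM) and the sulfiredoxin SRXN1 (6.11 to 77.4 CPM) rose, though most exonic bases of SRXN1 lie in another gene too. PIR and TXNRD2 fell (-0.28 ± 0.06 and -0.56 ± 0.11). The aldo-keto reductases, 4 of which are also on the NRF2 list, had 8 higher and 3 lower of 12 tested and a ratio of 9.77.

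Of 22 NRF2 target genes with a promoter in the RefSeq table (GRCh38.p14, 250 bases before the start and 50 after), 7 held the letters TGACNNNGC of an antioxidant response element on either strand, against 15.1% of 12087 promoters of tested genes. Among genes called higher by at least 2-fold the share was 16.0%. The letters were as frequent in other families, in 7 of 18 promoters of ATF4 and CHOP stress genes and in 8 of 26 of interferon-stimulated genes, most of which fell. Of the 7 NRF2 targets with the letters 6 rose and 1 fell, and of the 15 without them 14 rose and 1 fell. The windows of 4 genes that rose are shown because they place the letters next to known targets, with the match in capitals. They lie at chr1:10398848-10398886, plus strand (PGD), chr12:104215665-104215703, plus strand (TXNRD1), chr1:93909441-93909479, minus strand (GCLM) and chr6:83431165-83431203, minus strand (ME1). A match is a description of these letters and not a shown site.
PGD: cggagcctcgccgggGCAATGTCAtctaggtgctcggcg
TXNRD1: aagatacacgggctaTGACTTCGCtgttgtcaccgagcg
GCLM: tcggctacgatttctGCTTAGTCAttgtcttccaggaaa
ME1: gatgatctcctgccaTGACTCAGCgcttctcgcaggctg

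The 4 printed genes rose by 2.09 ± 0.04, 3.08 ± 0.03, 2.51 ± 0.04 and 2.34 ± 0.05. In PGD and GCLM the match lies on the strand opposite to the one printed. The remaining enzymes of detoxification were less uniform. Peroxiredoxins and the thioredoxin system had 9 higher and 6 lower of 19 tested: the cytosolic PRDX1 and TXN rose (1.05 ± 0.05 and 1.22 ± 0.04), and the mitochondrial PRDX3, PRDX5 and TXN2 fell (-0.38 ± 0.04, -0.38 ± 0.05 and -0.34 ± 0.06). Glutathione transferases and peroxidases had 7 higher and 7 lower of 17 tested, with GPX2 rising from 175 and 166 to 503 and 501 CPM and GPX4, which protects membranes, falling from 263 and 239 to 189 and 190.0 CPM. Aldehyde dehydrogenases had 2 higher and 9 lower of 17 tested, so the group fell more often than it rose although ALDH3A1 went from 196 and 199 to 487 and 471 CPM. Among cytochrome P450 enzymes CYP4F11 (22.1 to 322 CPM) and CYP4F3 (3.27 to 162 CPM) rose, while CYP1B1 fell from 33.7 and 25.6 to 1.75 and 1.95 CPM beside the loss of CYP1A1.

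Metallothioneins, small proteins that bind zinc and copper, fell as a family. Of 9 annotated genes 7 passed the filter on low counts (not MT1A and MT1B), none rose, 5 fell, and the median log2 change was -1.99. MT2A had 580.4 and 599 CPM under DMSO and 141 and 156 CPM under NEDD8i, and MT1E had 298 and 289.5 CPM under DMSO and 39.4 and 43.7 CPM under NEDD8i. MT1X fell less, from 14.1 and 13.3 to 8.97 and 7.46 CPM. The sum was 897 and 906 CPM under DMSO and 191 and 208 CPM under NEDD8i, a ratio of 0.221, or 0.206 with total counts. These copies are alike and shared reads were dropped, so single members are uncertain. Zinc carriers had 6 higher and 6 lower of 19 tested, with none at 2-fold among the rising ones.

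The promoter of MT2A is shown because metallothionein genes are read through short metal response elements. In the 250 bases before its start, chr16:56608334-56608583, plus strand, there were 7 matches to the core TGCNCNC on either strand, given in capitals. At least 7 matches stood in 0.091% of the 12087 promoters and at least 4 in 1.94%, and MT1X held 4. The count of matches did not follow the calls. MT1H held 8 and was not called (0.0552 to 0.0219 CPM), and MT1B, which was not tested, held 5. This motif was added after the values were seen.
MT2A: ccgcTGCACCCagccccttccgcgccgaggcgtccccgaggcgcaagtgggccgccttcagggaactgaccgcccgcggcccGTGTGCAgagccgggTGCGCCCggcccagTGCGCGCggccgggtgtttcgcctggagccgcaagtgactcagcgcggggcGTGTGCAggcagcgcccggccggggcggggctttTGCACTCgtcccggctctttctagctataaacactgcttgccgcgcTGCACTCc

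Iron genes had 9 higher and 3 lower of 15 tested and a ratio of 1.999. Both ferritin chains rose, FTL as above and FTH1 from 1252 and 1178 to 1739 and 1657 CPM (0.48 ± 0.09), though 58.2% of the exonic bases of FTH1 lie in other genes. The transferrin receptor TFRC, which imports iron, rose as well, from 821 and 835 to 1572 and 1472 CPM. The ferritin carrier NCOA4 and the iron sensor ACO1 fell (-0.42 ± 0.04 and -0.66 ± 0.05).

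Genes of glucose use rose at many steps. Of 22 glycolytic genes 17 rose and 2 fell, and their sum was 16683 and 16099 CPM under DMSO and 25164 and 24239.5 CPM under NEDD8i (4.63% of the gain). Beyond LDHA and ENO1, GAPDH rose from 2387 and 2392 to 3245 and 3231 CPM, and the falling genes were the phosphofructokinases PFKL and PFKM (-0.25 ± 0.05 and -1.15 ± 0.07). The pentose phosphate genes had 5 higher and 1 lower of 8 tested: PGD and TALDO1 rose by 2.09 ± 0.04 and 1.17 ± 0.04, while H6PD, the enzyme of the endoplasmic reticulum, fell from 64.8 and 78.05 to 19.3 and 18.3 CPM. Targets of the hypoxia factor HIF, which share LDHA, PGK1, SLC2A1, HK2 and PFKFB4 with glycolysis, had 20 higher and 1 lower of 24 tested, a median of 1.37 and a ratio of 2.38. PGK1 rose from 836 and 792 to 1652 and 1545 CPM and the glucose carrier SLC2A1 from 433 and 428 to 1165 and 1106 CPM. VEGFA (132 to 562 CPM), CA9 (5.18 to 34.9 CPM) and BNIP3 (6.22 to 143 CPM), targets with no part in glycolysis, rose too, and CITED2 fell (-1.57 ± 0.07). The letters ACGTG stood in 12 of 20 HIF target promoters and in 26.2% of all. Of those 12 genes 9 rose, and so did all 8 genes without the letters.

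Mitochondrial genes that were called mostly fell, by small amounts. All 15 transcripts of the mitochondrial genome had negative log2 changes, 10 were called, and none reached 2-fold. The sum was 26822 and 31348 CPM under DMSO and 21005 and 24168 CPM under NEDD8i (0.777), which is 5.67% of the CPM lost. The step between the nearest libraries of the groups, DMSO 1 and NEDD8i 2, was smaller than that between the DMSO libraries. Nuclear genes of the respiratory chain and ATP synthase had 3 higher and 31 lower of 75 tested, a median of -0.14 and no change of 2-fold. The citric acid cycle enzymes had 5 higher and 9 lower of 21 tested, and their sums overlapped between groups.

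Genes of lipid and amino acid supply were more often higher than lower. Cholesterol synthesis had 13 higher and 2 lower of 20 tested, led by MSMO1 (179 to 347 CPM) and SQLE (196 to 330.0 CPM). In fatty acid synthesis 10 of 17 rose, with FADS1 from 153 and 158 to 612 and 602 CPM, while the rate-limiting ACACA fell (-0.21 ± 0.05). The enzymes of serine, one-carbon and proline synthesis had 11 higher and 3 lower of 17 tested. PSAT1 rose from 223 and 289 to 606 and 627 CPM and the mitochondrial MTHFD2 from 170.0 and 192 to 442 and 452 CPM, and the cytosolic MTHFD1 and SHMT1 fell (-0.57 ± 0.04 and -0.47 ± 0.08). Amino acid carriers had 8 higher and 6 lower of 21 tested, and SLC7A11 went from 102 and 119.9 to 1205 and 1193 CPM while the glutamate carrier SLC1A3 fell from 60.1 and 57.4 to 11.6 and 11.1 CPM. Stress genes under ATF4 and CHOP had 14 higher and 1 lower of 20 tested. TRIB3 rose from 146 and 144 to 591 and 578 CPM and STC2 from 38.6 and 48.5 to 361 and 370.5 CPM, whereas ASNS, most of whose exonic bases lie in other genes too, had under 1 CPM in all 4 libraries.

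Protein production was split. Cytosolic ribosomal protein genes had 3 higher and 51 lower of 86 tested, and only 1 of the 54 called reached 2-fold. Their median log2 change was -0.17 and their sum was 57714 and 56203 CPM under DMSO and 50502 and 49983 CPM under NEDD8i, and members that fell made up 6.28% of all CPM lost, the largest share among the 94 families. RPS2, RPLP0 and RPL3 lost most (-0.29 ± 0.04, -0.23 ± 0.04 and -0.54 ± 0.03). Ribosome biogenesis factors, which assemble those proteins, moved the other way with 19 higher and 1 lower of 26 tested. DDX21 rose from 229 and 227 to 411 and 396 CPM, BYSL from 66.00 and 62.6 to 142 and 133.5 CPM, and the falling one was NOP58 (-0.18 ± 0.06), which was not called without DMSO library 1, NEDD8i library 1 or NEDD8i library 2 (-0.15, -0.19 and -0.16).

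Other genes of translation and RNA processing moved both ways. Aminoacyl-tRNA synthetases had 18 higher and 7 lower of 36 tested, or 12 higher and 11 lower with total counts, with WARS1 from 425 and 496 to 828 and 833 CPM. Translation factors had 27 higher and 15 lower of 63 tested, and their sums overlapped between groups, with EEF1A1 lower and EIF1 higher (544 to 893 CPM). Mitochondrial ribosomal proteins had 16 higher and 12 lower of 78 tested, and the direction of their sum turned with total counts. In this family 35.9% were called, fewer than the 43.6% over all genes. HNRNP and SRSF splicing factors had 4 higher and 16 lower of 34 tested, none at 2-fold, led by HNRNPA2B1 (1169 to 886 CPM).

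Folding genes changed in both directions. HSP and DNAJ chaperones had 27 higher and 13 lower of 64 tested, and their sum was 18455 and 18476 CPM under DMSO and 18971 and 18426 CPM under NEDD8i, which overlap. HSPA5, the chaperone of the endoplasmic reticulum, rose from 1046 and 1032 to 1576 and 1398 CPM and HSPA13 from 67.6 and 62.2 to 182 and 175 CPM, while HSP90AA1 fell from 3346 and 3314 to 2799 and 2714 CPM and HSPB1 from 417 and 389.9 to 168 and 162 CPM. Genes of folding in the endoplasmic reticulum were likewise 12 higher and 4 lower of 21 tested with overlapping sums, and CALR fell from 1226 and 1192 to 654 and 641 CPM. The CCT chaperonin and prefoldin had 9 higher and 2 lower of 14 tested, with CCT6A up (0.49 ± 0.03) and CCT3 down (-0.30 ± 0.04).

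Lysosomal hydrolases fell more often than they rose, with 5 higher and 16 lower of 28 tested. CTSH, CTSD (1787 to 1368 CPM, with most of its exonic bases shared) and PSAP (2346 to 2148 CPM) lost most, whereas CTSC (65.8 to 205 CPM), GLA (29.8 to 146 CPM) and CTSL (78.8 to 184 CPM) rose at least 2-fold. PSAP lost its call without DMSO library 2 or NEDD8i library 2 (-0.11 and -0.09). The proton pump of the lysosome, the V-ATPase, had 6 higher and 7 lower of 21 tested, and its sums overlapped with total counts.

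Cell cycle genes changed in both directions. Among regulators of the G1 to S transition, 6 of the 13 E2F and RB family genes rose and 0 fell, with E2F1 from 53.6 and 53.6 to 112 and 102 CPM and E2F7 from 33.9 and 41.4 to 81.6 and 90.2 CPM, while 1 was called lower with RLE factors and 2 with total counts. Among cyclins 8 rose and 7 fell of 24, or 6 higher and 9 lower with total counts. CCND3 went from 118 and 111 to 286 and 286 CPM, CCNE1 from 9.77 and 12.1 to 46.96 and 46.4 CPM and CCNE2 from 15.9 and 14.97 to 39.3 and 37.6 CPM, whereas CCNB1 fell from 180.0 and 159 to 77.6 and 69.2 CPM, CCNB2 from 116 and 114 to 41.4 and 42.5 CPM and the G1 cyclin CCND1 from 858 and 859.6 to 771 and 768 CPM. The cyclin sums overlapped between groups. The MCM and GINS genes of the replication helicase and its loading had 4 higher and 6 lower of 22 tested. These are 18.2% and 27.3%, beside 22.5% and 21.1% over all genes. CDC6, the origin licensing factor, rose from 163 and 158 to 272 and 277 CPM, while the MCM helicase subunits MCM2, MCM3 and MCM5 fell (-0.55 ± 0.04, -0.39 ± 0.05 and -0.23 ± 0.05). Polymerase and fork genes had 6 higher and 11 lower of 26 tested. Of these, TOP2A, which untangles chromosomes at mitosis, fell from 708 and 722 to 228 and 239 CPM and PCNA rose slightly (0.20 ± 0.04), a call lost with total counts (0.10).

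Among families of mitosis, kinetochore proteins and condensin with cohesin fell more often than they rose, while kinesins were near even. Centromere and kinetochore proteins had 3 higher and 23 lower of 39 tested and a sum of 2698 and 2552 CPM under DMSO and 1906 and 1935 CPM under NEDD8i. CDC20, which activates the anaphase ligase, went from 255 and 228 to 61.2 and 55.7 CPM, the kinase PLK1 from 185 and 181 to 38.96 and 34.3 CPM, and AURKA from 128 and 122 to 37.4 and 34.8 CPM. The 3 that rose were CENPU, CENPX and MIS12 (0.78 ± 0.07, 0.64 ± 0.07 and 0.76 ± 0.09). Kinesins had 11 higher and 13 lower of 35 tested, or 7 higher and 13 lower with total counts, and a median log2 change of 0.00. The mitotic KIF20A fell from 129 and 121 to 17.7 and 15.6 CPM and KIF11 from 209.6 and 207 to 116 and 123 CPM, and the cargo motor KIF5B rose (0.33 ± 0.05). Condensin and cohesin had 4 higher and 13 lower of 24 tested, with the condensin subunit NCAPD2 down from 427 to 171 CPM.

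The letters TTTGAA, the core of the cell cycle homology region that represses genes until G2 and mitosis, stood in 14 of 31 kinetochore promoters on either strand and in 10.4% of all 12087. Of those 14 genes 9 fell and 5 were not called, and of the 17 without the letters 8 fell, 3 rose and 6 were not called. Windows of 3 genes that fell are shown as examples with the match in capitals, at chr16:23678845-23678880, plus strand (PLK1), chr2:26786023-26786055, plus strand (CENPA) and chr15:40161031-40161066, plus strand (BUB1B).
PLK1: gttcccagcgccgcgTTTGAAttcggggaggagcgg
CENPA: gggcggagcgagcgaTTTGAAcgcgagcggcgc
BUB1B: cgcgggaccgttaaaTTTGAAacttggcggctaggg

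These 3 genes fell by 2.32, 1.99 and 0.92 on the log2 scale. The plain match reads the same way on the printed strand in all 3.

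Most histone transcripts that were called fell. Canonical histone genes, whose messages mostly lack the poly(A) tail that this kit primes on, had 0 higher and 22 lower of 41 tested, all at least 2-fold, and a sum of 253 and 246 CPM under DMSO and 58.8 and 52.9 CPM under NEDD8i. The kit counts only the tailed part of these messages. H2AC6 went from 53.9 and 53.7 to 6.45 and 6.33 CPM, H1-2 from 46.7 and 46.4 to 7.44 and 7.65 CPM and H2BC12 from 55.4 and 57.2 to 25.1 and 21.2 CPM. Histone variants, which do carry a tail, had 1 higher and 8 lower of 11 tested. H3-3B fell from 741 and 763 to 463 and 461 CPM and H3-3A from 369 and 349 to 214 and 217 CPM, and MACROH2A1 rose (0.22 ± 0.04).

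Genes of damage response and death followed no single direction. Targets of p53 had 15 higher and 7 lower of 26 tested: CDKN1A, PLK2 and GDF15 gained most (15.98 to 117 CPM for GDF15), and DDB2, BTG2 and FDXR fell (-1.20 ± 0.10, -1.54 ± 0.11 and -0.53 ± 0.10). The BCL2 family had 9 higher and 3 lower of 18 tested. The protective MCL1 (0.56 ± 0.04) and BCL2L1 (0.96 ± 0.06) and the killing PMAIP1 (1.20 ± 0.07) rose side by side, and BMF fell from 14.8 and 15.1 to 1.66 and 1.47 CPM. Fanconi and recombination genes had 11 higher and 4 lower of 28 tested, but 6 higher and 9 lower with total counts, and none reached 2-fold.

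Genes of the EGF receptor and its ligands moved in different directions. EGFR and ERBB2 fell (-0.34 ± 0.04 and -0.60 ± 0.07) and ERBB3 rose (0.25 ± 0.07), a call lost with total counts or without DMSO library 1 (0.15 and 0.16). Of the ligands, EREG rose from 37.9 and 39.4 to 318 and 325 CPM, HBEGF from 10.6 and 11.6 to 123 and 127 CPM and AREG from 9.82 and 11.1 to 74.7 and 71.9 CPM. In all the family had 8 higher and 2 lower of 14 tested, while the family's sums, 3217 and 3359 CPM under DMSO and 3158 and 3256 CPM under NEDD8i, overlapped, and EGFR alone holds most of each. The feedback genes of the same pathway had 16 higher and 3 lower of 26 tested. ERRFI1, an inhibitor of the receptor, went from 30.5 and 33.3 to 219 and 229.9 CPM, and the ERK phosphatases DUSP6 from 12.8 and 12.1 to 67.8 and 70.9 CPM and DUSP5 from 26.7 and 23.6 to 76.8 and 80.7 CPM. DUSP10, which acts on other kinases, fell (-0.74 ± 0.08).

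Most transcription factor families held members called in both directions, as did 89 of the 94 families. In the AP-1 and related factors FOSL1 rose from 48.4 and 39.02 to 396 and 422 CPM, MAFG from 36.1 and 29.8 to 204 and 202 CPM and JUN as above, and FOS fell from 841 and 675 to 248 and 272 CPM, JUNB from 275 and 255 to 159 and 166 CPM and FOSB from 108 and 79.9 to 37.6 and 48.3 CPM. The AP-1 letters TGANTCA stood in 10.8% of 677 promoters of genes called higher by at least 2-fold, in 5.71% of 999 called lower by as much, and in 5.19% of all. ETS factors were 6 higher and 6 lower of 20 tested, with ETV4 from 7.25 and 9.12 to 63.8 and 61.2 CPM and the epithelial ELF3 down from 307 to 158 CPM. SOX9 rose from 34.8 and 32.04 to 128 and 142 CPM. The KLF and SP factors had 5 higher and 6 lower of 22 tested, forkhead factors 10 higher and 6 lower of 30 tested and ZNF genes 72 higher and 63 lower of 397 tested, and the direction of their sums turned with total counts. HOX genes had 0 higher and 8 lower of 33, so 24.2% were lower, near the 21.1% over all genes.

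Helix-loop-helix repressors of the ID and HES kind had a lower sum, most of it from a few members. ID1 had 531 and 481 CPM under DMSO and 210.1 and 236 CPM under NEDD8i, ID3 223 and 212 CPM under DMSO and 48.3 and 51.9 CPM under NEDD8i and HES1, a NOTCH target, 80.7 and 76.8 CPM under DMSO and 14.8 and 14.2 CPM under NEDD8i. The ID and HES family had 2 higher and 5 lower of 13 tested and a ratio of 0.402, with HES2 and HEY1 the rising ones (0.26 ± 0.08 and 1.90 ± 0.38). HES2 was not called with total counts, without DMSO library 1 or without NEDD8i library 1 (0.15, 0.24 and 0.20). ID genes are targets of BMP signals, as is ATOH8. BMP and TGF-beta genes had 5 higher and 6 lower of 27 tested (18.5% and 22.2%, beside 22.5% and 21.1% over all genes). TGFB1 rose from 67.8 and 64.9 to 190.4 and 192 CPM, and its target TGFBI fell from 785 and 727 to 402 and 407 CPM. WNT genes had 8 higher and 17 lower of 36 tested, and WNT10A fell from 154 and 141 to 57.9 and 60.1 CPM.

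Among immune genes some inflammatory signals rose and others fell, while most interferon response genes fell. Chemokines had 5 higher and 4 lower of 18 tested (27.8% and 22.2%, beside 22.5% and 21.1% over all genes). CXCL8 held most of their summed gain, CXCL16 rose from 56.98 and 52.97 to 95.5 and 89.4 CPM, and CXCL1 from 0.382 and 0.388 to 3.32 and 2.82 CPM, while CCL5, CXCL12 and CCL22 fell to under 1 CPM. Interleukins and receptors had 21 higher and 9 lower of 54 tested. OSMR, the oncostatin receptor, went from 43.6 and 47.4 to 188 and 188 CPM, IL1RL1 from 5.87 and 7.47 to 99.6 and 98.5 CPM and the interleukin 1 antagonist IL1RN from 263 and 248 to 389.7 and 391 CPM, and IL20RB fell from 227 and 248 to 108 and 116 CPM. In the NF-kB family 9 rose and 4 fell of 17: TNFAIP3 rose from 11.95 and 11.5 to 51.4 and 52.8 CPM and NFKBIA, the inhibitor that is itself a target of the factor, fell from 69.6 and 65.7 to 33.9 and 34.1 CPM. TNF ligands and receptors had 9 higher and 5 lower of 30 tested, and TNFRSF10B, a receptor of TRAIL, rose (0.93 ± 0.07) where its ligand TNFSF10 fell.

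Interferon-stimulated genes had 3 higher and 26 lower of 33 tested, a median of -0.70 and a sum of 2083 and 2123 CPM under DMSO and 1525 and 1516 CPM under NEDD8i. PARP14 fell from 152 and 164 to 80.9 and 82.9 CPM, IFIT3 from 91.1 and 95.3 to 29.3 and 28.1 CPM and IFI27 from 263 and 246 to 204 and 194 CPM, and SAMD9, USP18 and ISG20 rose (0.13 ± 0.05, 0.34 ± 0.11 and 0.59 ± 0.18). These 3 rises were not firm. SAMD9 was not called with total counts (0.02) and without DMSO library 1 or either NEDD8i library, USP18 with total counts (0.24) and without any 1 of the 4 A431 libraries, and ISG20 without DMSO library 2 or NEDD8i library 1 (0.44 and 0.29). HLA and peptide loading genes had 1 higher and 19 lower of 31 tested, with the 1 that rose, HLA-DQB1, barely detected (0.0174 to 0.0984 CPM) and not called under 9 of the alternatives, DESeq2 and total counts among them. B2M, HLA-B (936 to 645 CPM) and HLA-C (1186 to 1022 CPM) lost most. HLA genes resemble each other, so single levels are uncertain.

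The letters GAAA, then 2 bases of any kind, then GAAA, the core of an interferon-stimulated response element, stood in 17 of 26 promoters of this family on either strand, in 2.88% of all 12087 promoters, in 5.31% of those of genes called lower by at least 2-fold and in 2.22% of those called higher by as much. Of the 17 genes with the letters 14 fell, 2 rose (SAMD9 and ISG20) and 1 was not called (IFIT5), and of the 9 without them 6 fell and 3 were not called. Windows of 3 genes that fell and of IFIT5 are shown with the matches in capitals, at chr10:89392492-89392544, plus strand (IFIT1), chr10:89327826-89327899, plus strand (IFIT3), chr1:1013369-1013414, plus strand (ISG15) and chr10:89414508-89414567, plus strand (IFIT5).
IFIT1: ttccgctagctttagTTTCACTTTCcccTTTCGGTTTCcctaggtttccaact
IFIT3: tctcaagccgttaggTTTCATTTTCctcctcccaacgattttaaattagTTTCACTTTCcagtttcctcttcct
ISG15: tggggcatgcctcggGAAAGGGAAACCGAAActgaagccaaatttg
IFIT5: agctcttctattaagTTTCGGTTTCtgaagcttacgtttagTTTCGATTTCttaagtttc

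Each window holds 2 matches, which overlap in ISG15 and are set apart in IFIT1, IFIT3 and IFIT5, where they read TTTC on the printed strand. IFIT1 fell from 46.9 and 49.3 to 9.32 and 7.03 CPM and ISG15 from 43.9 and 37.9 to 15.2 and 19.1 CPM (-2.57 ± 0.11 and -1.25 ± 0.12), while IFIT5 had 41.4 and 44.3 CPM under DMSO and 47.3 and 45.8 CPM under NEDD8i.

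**Figure D5:**
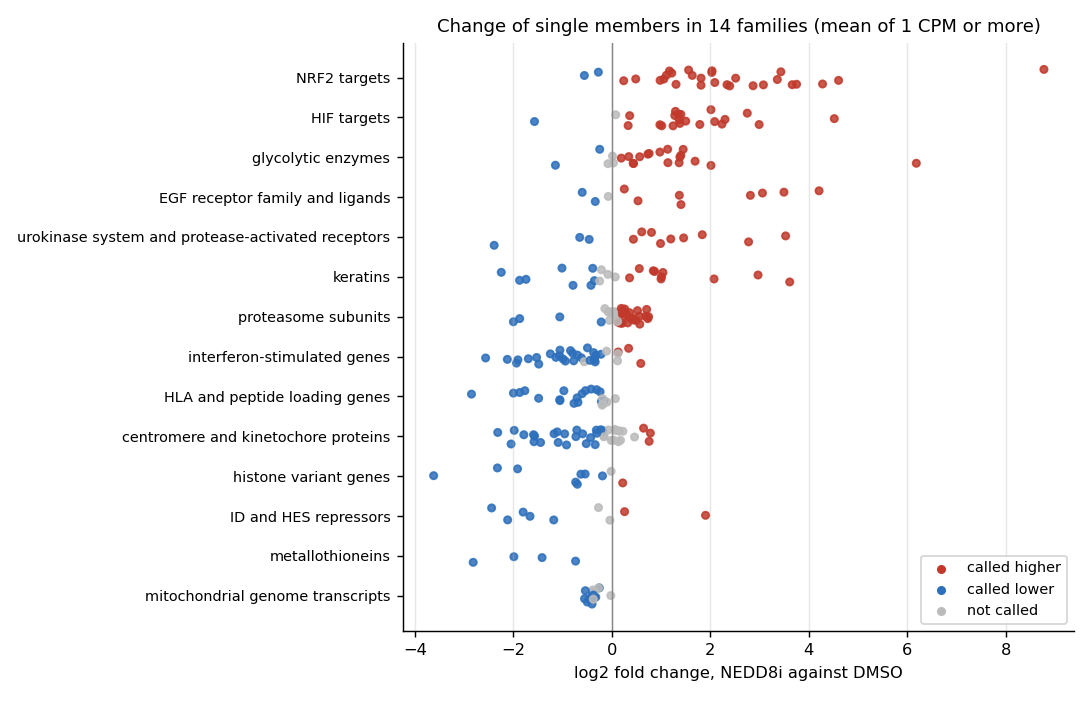
Log2 change, NEDD8i against DMSO, of single members of 14 families with a mean of at least 1 CPM and counts in both groups. Red points were called higher, blue points called lower and grey points not called. NRF2 and HIF targets lie almost wholly to the right of 0 and interferon, HLA and kinetochore genes mostly to the left, while keratins spread to both sides.

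Epithelial structure genes changed by exchange of members. Keratins had 12 higher and 8 lower of 34 tested, and their summed level, 13796 and 13609.7 CPM under DMSO and 15052 and 14437 CPM under NEDD8i, overlapped between groups with total counts. KRT14, KRT6A (979 to 1966 CPM) and KRT16 (63.9 to 499.5 CPM), the last 2 induced in wounded epidermis, rose. KRT15, KRT5 and KRT13 (674 to 389.8 CPM) fell. KRT6A has near-identical copies, so its level is uncertain. S100 proteins had 7 higher and 5 lower of 15 tested (6 higher and 6 lower with total counts), with S100A16 up (366 to 819 CPM) and S100A2 and S100A6 down (483 to 245 CPM and 296 to 122 CPM). Annexins were likewise divided between ANXA1 (0.70 ± 0.04) and ANXA4 (-1.95 ± 0.05). Of the cornified envelope genes, 3 rose and 6 fell of 25, and TGM1 rose from 5.42 and 5.24 to 21.5 and 23.03 CPM. In this family 36.0% were called, below the 43.6% over all genes.

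Junction genes likewise moved both ways. DSG3, the basal desmoglein, rose from 222 and 237 to 549 and 551 CPM while DSG2 fell from 754 and 775 to 514 and 516 CPM, and desmosome genes had 7 higher and 4 lower of 13 tested. Among tight junction genes CLDN4 rose from 173 and 155 to 618 and 586 CPM and CLDN1 fell from 838 and 834 to 596 and 563 CPM. CDH1, E-cadherin, rose from 406 and 405 to 637 and 641 CPM. Integrins had 6 higher and 5 lower of 18 tested, or 5 higher and 7 lower with total counts. Both chains of the hemidesmosome integrin, ITGA6 and ITGB4, fell by 0.94 each on the log2 scale, and COL17A1, the collagen of the same structure, fell from 382 and 409 to 222 and 231 CPM. ITGA5, a fibronectin receptor chain, rose (0.62 ± 0.05). Collagens had 1 higher and 13 lower of 29 tested and a ratio of 0.643, and laminins 2 higher and 3 lower of 10 tested, with LAMA3 lower (-0.58 ± 0.05).

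Genes of protease control at the cell surface included a family in which most members rose. The urokinase system with its inhibitors and the protease-activated receptors had 10 higher and 3 lower of 13 tested, a sum of 1137 and 1118 CPM under DMSO and 3129 and 3149 CPM under NEDD8i, and a ratio of 2.78. Thrombomodulin (THBD) rose from 503 and 495 to 1136 and 1149 CPM, tissue factor (F3) from 206 and 196 to 712 and 722 CPM, and the inhibitor SERPINB2 from 83.6 and 73.9 to 539.8 and 539 CPM, while the thrombin receptor F2R fell from 7.35 and 6.25 to 0.897 and 1.64 CPM as F2RL2 appeared. Serpins as a family had 11 higher and 3 lower of 22 tested, with the collagen chaperone SERPINH1 down from 193 and 185 to 70.8 and 74.2 CPM. Matrix and ADAM proteases with their inhibitors had 11 higher and 10 lower of 40 tested. Of the sheddases, ADAM17 rose from 45.5 and 49.6 to 162 and 161 CPM and ADAM10 fell from 341 and 356 to 265 and 271 CPM. Eph receptors and ephrins had 7 higher and 4 lower of 17 tested, with EPHA2 from 253 and 243 to 613 and 601 CPM and EPHA4 down from 27.2 and 33.3 to 1.75 and 2.55 CPM, and semaphorins and plexins 7 higher and 11 lower of 30 tested, where PLXNB2 made up most of the loss.

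The cell skeleton and its regulators moved moderately. Actins, myosins and tropomyosins had 18 higher and 7 lower of 45 tested and held 2.34% of the gain. Rab GTPases had 18 higher and 8 lower of 57 tested, and RAB10 gained most (0.82 ± 0.04). Tubulins were 5 higher and 4 lower of 16 tested, none at 2-fold, and the direction of their sum turned with total counts.

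Antisense and long intergenic transcripts fell more often than they rose. Antisense genes, by the type in an older annotation, were called in 14.5% of 1141 cases, 45 higher and 120 lower, with a median log2 change of -0.40, against 54.6% of 13677 protein-coding genes and a median of 0.00. Long intergenic genes were called in 20.9% of 987, 74 higher and 132 lower. Smaller noncoding classes were mixed. More genes rose than fell among snoRNA genes (7 higher and 1 lower of 86) and sense intronic genes (11 and 4 of 143). Processed transcripts (17 higher and 27 lower of 179) and sense overlapping genes (0 and 7 of 41) went the other way. So did transcripts of bidirectional promoters (0 and 5 of 26). In each of these classes the share called was below the 43.6% over all genes. The median levels of antisense and long intergenic genes were 0.27 and 0.26 CPM against 23.1 CPM for protein-coding genes. At 1 to 10 CPM, 7.29% of antisense genes were higher and 25.5% lower, beside 15.02% and 31.0% of protein-coding genes of that class. Because counting ignored strand, reads of a gene and of its antisense partner cannot be told apart. LINC03061 rose from 21.2 and 21.8 to 97.95 and 109 CPM and LINC00511 fell from 47.3 and 43.3 to 22.4 and 22.2 CPM. Host transcripts of miRNAs had 8 higher and 2 lower of 36 tested, so 22.2% were higher, near the 22.5% over all genes. Among them MIR205HG, which carries the epithelial microRNA miR-205, rose from 25.4 and 26.1 to 44.7 and 48.1 CPM.

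The A431 response was set against that of CAL27 by the difference of the 2 responses in the same fit. This difference was called in 6369 of the 18738 genes (34%), 2658 (14.2%) in favour of CAL27 and 3711 (19.8%) below it. Of the genes called in A431, 4893 were called in the same direction in CAL27 and 935 in the opposite direction. Among the 55 genes named for their level, CPM or detection, 35 differed between the lines. CXCL8 differed most among those counted in both A431 groups: its log2 change was 7.94 in A431 and 0.94 in CAL27, a difference of -7.0. AKR1B10 rose by 8.78 in A431 and 2.81 in CAL27, while AKR1C1 rose more in CAL27 (8.38 against 4.60). SCD rose in A431 (0.55) and fell in CAL27 (-0.77). FTL, ENO1, SFN, HKDC1 and MAP2 showed no called difference, with changes of 1.81 and 1.83, 0.56 and 0.46, 1.90 and 2.01, 6.18 and 6.0, and 4.96 and 4.73 in A431 and CAL27.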

How the data were processed

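For each library the authors deposited raw read counts by gene. They aligned reads to GRCh38 with STAR (per the submitters' processing notes), and counted exons of the GENCODE 39 basic annotation with featureCounts 2.0.8 (per the file headers), without strand and with each mate of a pair counted. Reads shared by genes were dropped, so near-identical copies and overlapping genes are uncertain. Between 70.2% and 76.7% of the counts from 1 to 40 were even.

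From the counts, edgeR 4.0.16 in R 4.3.3 fitted 1 mean for each of the 4 groups over all 8 libraries, with TMM factors and filterByExpr, and tested A431 NEDD8i against DMSO and the CAL27 response minus the A431 response by quasi-likelihood tests with Benjamini-Hochberg adjustment over 18738 genes. CPM are counts divided by the TMM-scaled library size, on the scale of edgeR's cpm function. On simulated data for the A431 comparison (17765 genes), 74%, 86%, 96% and 98% of genes changed 1.5-, 2-, 3- and 4-fold were recovered, with 3.80% false calls. There, 50 genes were changed at each fold, all of at least 1 CPM, equally in both directions and with independent counts. The data held far more changes, more genes of low level and counts of both mates, so these rates may not carry over. Replicates correlated with r of 0.981 to 0.986 across genes and differed by 6.26 to 13.0 times sampling noise, so none was a copy of another.

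The families, motifs and rules were chosen with earlier results of these data known. Families were matched by symbol, and after the symbols were seen pseudogenes and 2 variant histone genes were dropped from them. Named genes are the NEDD8 pathway genes, the 15 largest gains and losses of CPM, the 3 largest rises and falls per level class from 10 CPM, the 6 highest genes gained or lost from detection, and up to 3 members per family and direction. Further members (ASNS, BNIP3, BUB1B, CA9, CCNE1, CCNE2, CENPA, ERBB3, GCLC, GCLM, HK2, HMOX1, IFIT1, IFIT5, ISG15, ME1, MT1H, NFE2L2, NQO1, PFKFB4, PSMD10, SRXN1, STC2 and VEGFA) were chosen after their values were seen. A few genes and 1 family that these rules name are not reported here. Symbols matched 61369 of 61533 identifiers, gene types came from GENCODE 29, and promoters from RefSeq (GRCh38.p14), with 12087 of the tested genes matched. Alternatives were RLE factors, total counts, DESeq2 1.42.0, other filters, the A431 libraries alone, counts divided by 2, a replicate block, genes with shared exons left out, and each library left out.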

Additional observations from a re-analysis of the deposited data

Results flagged for a closer look

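Among the 55 genes named for pathway, CPM, level or detection, 35 had a response that differed between A431 and CAL27 by the test of the difference itself. Over all 18738 genes tested, this difference was called in 6369. Values are the CAL27 log2 change minus the A431 log2 change (edgeR quasi-likelihood test, adjusted p under 0.05), so a negative value means a higher response in A431.

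Of the genes with a positive A431 change, the response was larger in CAL27 for NEDD8 0.30, AKR1C2 1.26, AKR1C1 3.77, TXNRD1 0.24, ACTB 0.31, ACTG1 0.15, SLC7A11 0.91 and SPP1 2.84. NEDD8 itself was not called in A431. The response was larger in A431, or reversed in CAL27, for NAE1 -0.71, LDHA -0.76, KRT14 -0.40, PGD -0.45, SLC3A2 -0.74, SCD -1.32, CXCL8 -7.0 and AKR1B10 -5.97.

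Of the genes that fell in A431, the difference was positive, meaning a smaller fall or a rise in CAL27, for KRT5 0.16, TMSB4X 0.59, MT-RNR2 0.40, B2M 0.48, CAV1 0.19, PTMA 0.19, RPS2 0.47, HPGD 2.33 and PSCA 2.04. The difference was negative, meaning a larger fall in CAL27, for KRT15 -1.44, CTSH -0.40, PLXNB2 -0.58, EGFR -0.90, TNFSF10 -0.88 and MXRA5 -1.40.

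Fitted differences were also called for F2RL2 -7.27, MAP1B -6.72, IGFL1 -7.16 and TNFSF18 -6.14. These 4 genes had 0 counts in both A431 DMSO libraries, so their fitted values depend on the prior count and give no size. Among 228 further genes named with their families, 165 had a called difference, and 21 were called in opposite directions in the lines. Of the 8175 genes called in A431, 935 were called in the opposite direction in CAL27, so opposite calls are not particular to the named genes. Most named genes were chosen for a large change in A431, so their share with a called difference cannot be read as that of all genes. No cause of the differences between the lines was tested.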

How the results depend on the processing

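The 4224 genes called higher and 3951 called lower became 4199 and 3978 with RLE factors, 4126 and 3861 with DESeq2, and 3469 and 4869 with total counts. With a replicate block 4218 were higher and 3878 lower, 7922 of them shared with the same direction. Over all genes, deviations of libraries with the same number were not correlated (r of 0.0056 in A431 and -0.03 in CAL27). With 2 libraries per group this cannot show whether the numbers mark a shared culture or day. Of 296 recomputed values for the counts and sums, 274 stayed within their spread or within 1.5 times. Under 1 CPM, 261 genes called higher became 36 with a filter of 1 CPM and 145 with the A431 libraries alone, and 488 called lower became 115 with that filter. With 1 library left out those counts ranged from 202 to 252 and from 312 (without NEDD8i library 1) to 495. The CPM gained fell from 179987 to 140791 with total counts, and ranged from 172836 to 180381 with 1 library left out. The CPM lost changed from -105644 to -138660 with total counts and -104031 without genes of shared exons, and ranged from -103536 to -99450.3 with 1 library left out. The 13 genes that appeared became 31 at 0.2 CPM and 7 at 1 CPM (17 to 22 with 1 library left out), and the 8 that vanished 41 and 1 (14 to 24). The direction of the summed CPM turned with total counts in 14 of the 94 families and without 1 library in 6. Among 4793 recomputed changes of 283 named genes none reversed, 48 in 18 genes lost their call and 4 gained one. For counts and sums that moved, the cause was not tested where the setting itself does not remove genes or libraries. With 2 libraries per group, depth and the even counts limit genes under 1 CPM most.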
